A study of Mus musculus with 12 samples.

Results

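The comparison described here is that of luteolin-supplemented mice (LU) with mice fed the high-fat diet alone (HFD) in epididymal white adipose tissue (eWAT), the fat pad along the epididymis. All genes of the 3 LU and the 3 HFD mice were compared, which are 6 of the 12 libraries of the series. All of these animals were male C57BL/6J mice, 21 weeks old, and had been on their diets for 16 weeks. The HFD group received a high-fat diet with no supplement, and the LU group received the same high-fat diet with 0.003% (w/w) luteolin. The other libraries were those of 3 mice on a normal diet (ND) and 3 mice on the high-fat diet with an ethanol extract of chrysanthemum leaves (CLE) at 1.5%. They gave reference values and also entered the same statistical fit, so they took part in its estimate of spread and its adjusted p values. The sequenced mice were described by the authors as representative of larger groups, and how they were picked is not given in the sources used here. Each library was made from 1 mouse. RNA was taken from the whole fat pad, so fewer cells of a type and less RNA per cell cannot be told apart in any value below.

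Luteolin is a flavone, a yellow plant pigment found in many vegetables, herbs and chrysanthemum leaves. White adipose tissue stores triglyceride in adipocytes, which release fatty acids by lipolysis and secrete hormones such as leptin and adiponectin. When the tissue expands on a high-fat diet, macrophages gather around adipocytes, take up lipid and degrade it in lysosomes, collagen accumulates, and several adipocyte genes are expressed at a lower level. The comparison of LU with HFD asks which of the genes expressed in the obese tissue differ when luteolin is added to the diet.

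The unit is FPKM, a fragment count scaled to transcript length and library size, summed over the transcripts of each gene. Fold changes are LU minus HFD on the log2(FPKM + 1) scale, so that folds of weakly expressed genes come out too small. A gene was called when its Benjamini-Hochberg adjusted p in limma was under 0.05 and its fold change was over 1.5, and only called genes are said to have risen or fallen. Values of single mice are given in the order HFD mice 12, 15 and 18 and LU mice 2, 3 and 8. Where a gene is given at one FPKM value to another, these are the means of the HFD and then of the LU mice, and a bare number in brackets after a gene is its log2 fold change. For any single gene, an exact permutation test of 3 against 3 mice cannot give a two-sided p below 0.1. The adjusted p therefore rests on the variance that limma pools over the 12 libraries of all groups and shares across genes. Each of the 12 libraries was also left out in turn. Where a call was lost in this way, the gene is followed in brackets by the mice whose absence lost it (such as HFD 12) and by the lowest and highest log2 fold change over the fits without 1 mouse, or the mouse is named in the text.

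The 6 libraries were similar in their totals over genes, between 435095 and 455040 FPKM. Over all deposited rows they were not, with 1290982 FPKM in HFD mouse 12 and 6409288 FPKM in LU mouse 3 at the extremes. Assembled transcripts without an Ensembl match, which were left out of the gene sums, held 65.3% and 92.7% of these totals. Pearson's r across genes was 0.989 to 0.991 between HFD mice and 0.984 to 0.988 between LU mice. The deposited values carry no read counts, so the depth behind a value is unknown. The labels of LU mouse 2, ND mice 3 and 4 and CLE mouse 4 carry a letter R that no HFD label carries. Counts without the libraries so labelled are given where they differ by more than 1.5 times. Those fits keep only mouse 2 of the ND group and rest on fewer libraries. A call lost there cannot be tied to the label of LU mouse 2 alone. The label of the tissue was checked against defining genes. The adipocyte genes *Fabp4* and *Car3* had the highest means of the genes tested, while of 10 epididymis genes 1 was high enough to be tested and their sum was at most 6.0 FPKM. The sum over 9 skeletal muscle genes was at most 15.6 FPKM and the sum over 8 liver genes at most 14.1 FPKM in these mice. The muscle calcium buffer *Pvalb* was called lower (from 6.35 to 1.89 FPKM, log2 fold change -1.36), but not without HFD mouse 12 or without LU mouse 2 or 3. It was at 6.82, 6.44 and 5.79 FPKM in the HFD mice. The muscle genes *Ckm*, *Tnnt3*, *Mylpf* and *Tnni2* did not follow it, and of the 6 mice were above 1 FPKM only in HFD mouse 12. Of 7 tested liver genes, limma called 0, with 0 at the adjusted p alone and 1 at an unadjusted p under 0.05. The epididymal *Crisp1* was not called (log2 fold change 0.74, adjusted p = 0.281), but was called higher without the libraries labelled R (1.19). *Pvalb* was not called without them.

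Of the 12775 genes tested, 614 rose in the LU group (4.81%) and 976 fell (7.64%), so that 12.4% were called in one or the other direction. With the adjusted p alone, 1688 were higher (13.2%) and 1740 lower (13.6%). All 3 LU mice were above all 3 HFD mice in 25.6% of the genes and below them in 22.1%. The median log2 fold change over all genes was 0.03, with a median standard error of 0.12. Falls reached further than rises. Among the called genes, 104 rose and 411 fell by more than 2-fold, while 1 rose and 38 fell by more than 4-fold. The 2 groups did not overlap in 99.2% of the called genes, against 47.6% of all genes tested. The rule for calling, applied to the same mice, largely brings this about, so it is not a separate result.

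**Figure D1:**
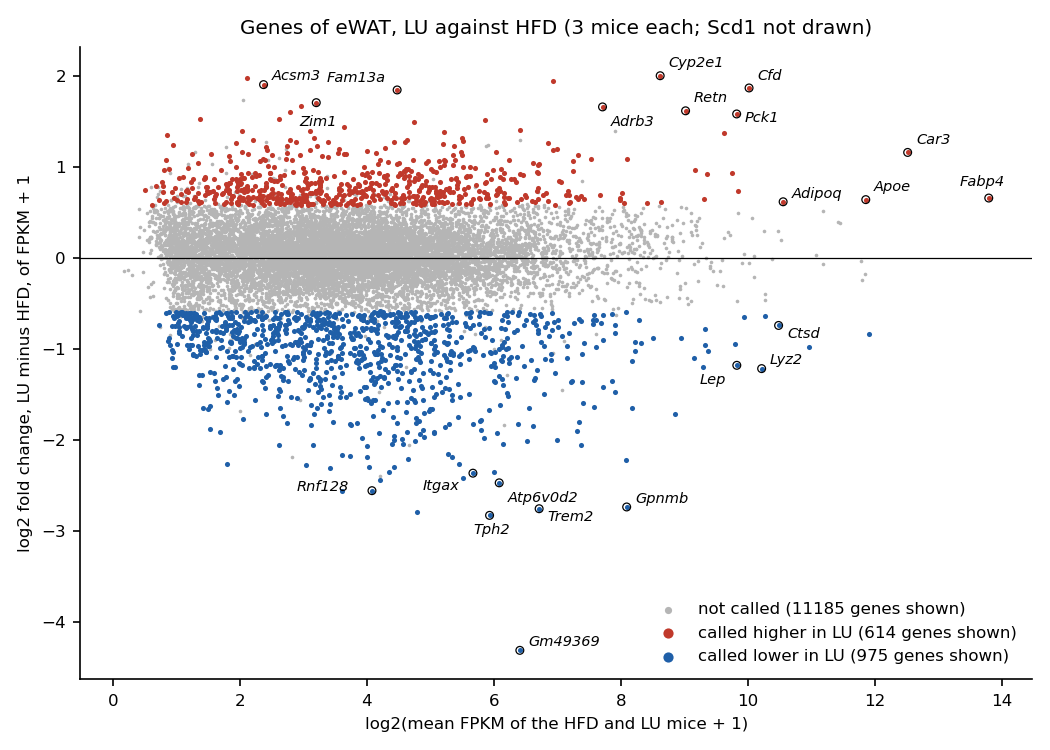
Each point is 1 of the genes tested, with the mean FPKM of the 6 mice on the x axis and the log2 fold change of LU against HFD on the y axis, both on the log2(FPKM + 1) scale. Red and blue points are the called genes, and the open circles mark genes named in the text. The called falls reach below -2 for macrophage genes such as *Gpnmb* and *Trem2*, while the largest rise, of *Cyp2e1*, is 2.01. *Scd1* lies outside the drawn range and is left out.

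The gene lists used to describe these calls were written with earlier results of these data known, so their counts are descriptions, each to be read against the shares of 4.81% higher and 7.64% lower among all genes. Counts by the adjusted p alone are to be read against 13.2% higher and 13.6% lower. Counts of genes without overlap are to be read against 25.6% above and 22.1% below. Among lists with at least 10 tested members, those with the highest share called lower were lipid-associated macrophages (14 of 15 tested members), macrophage and monocyte identity (12 of 15), cell cycle (21 of 33), innate receptors (13 of 26) and the lysosome (28 of 59). Those with the highest share called higher were the endothelium (8 of 12), adipocytes (7 of 15) and adipokines (11 of 25). Some genes are in several lists, so these counts are not separate results. *Adipoq*, *Retn*, *Cfd* and *Lep* are in both the adipocyte and the adipokine list, and *Atp6v0d2* is in both the lipid-associated macrophage and the lysosome list. The proteasome, the housekeeping protease complex, had 0 of 34 members called and a median log2 fold change of 0.04, and limma gave 3 members an unadjusted p under 0.05 and 1 an adjusted p under 0.05 (*Psmb1*, 0.31, chosen after its value was seen).

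**Figure D2:**
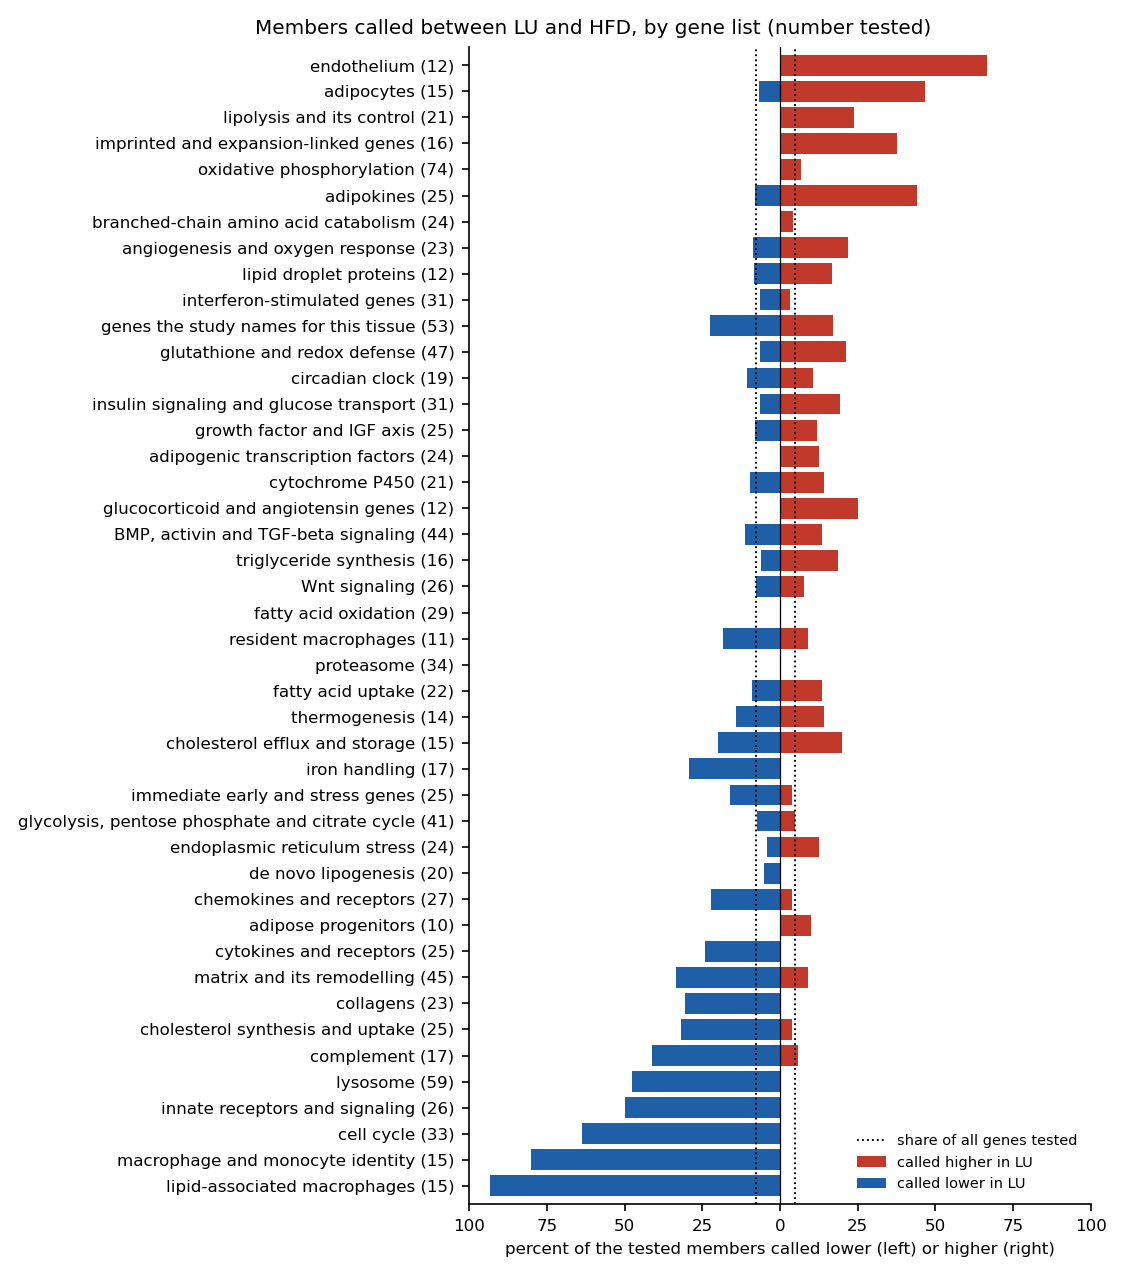
Bars give the percent of the tested members of each gene list that were called lower (blue, to the left) or higher (red, to the right) in LU, for lists with at least 10 tested members, ordered by their median log2 fold change. The dotted lines are the shares among all genes tested, 7.64% lower and 4.81% higher. Macrophage, cell cycle, innate receptor and lysosome lists extend furthest to the left, and the endothelium, adipocyte and adipokine lists furthest to the right.

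Genes of lipid-associated macrophages, the lipid-filled macrophages of obese fat, fell more than those of any other list with at least 10 tested members. Their median log2 fold change was -1.80, and the sum over the 15 genes was 4950 to 5590 FPKM in the HFD mice and 1910 to 2660 FPKM in the LU mice, with no overlap. *Trem2* encodes the lipid receptor that defines this state (chromosome 17, 48346401 to 48354147 in GRCm38). It was listed at 209, 163 and 167 FPKM in HFD mice and 21.2, 16.4 and 47.6 FPKM in LU mice (log2 fold change -2.76, standard error 0.54, adjusted p = 0.00372). *Gpnmb*, a glycoprotein of lipid-loaded macrophages (chromosome 6, 49036546 to 49070929 in GRCm38), was listed at 541, 412 and 459 FPKM in HFD mice and 65.3, 46.7 and 109 FPKM in LU mice (log2 fold change -2.74, standard error 0.60, adjusted p = 0.00682). In both genes, LU mouse 8 had the highest value of its group and was still far below every HFD mouse. Without the libraries with the letter R, the adjusted p of *Gpnmb* was 0.0539, and 11 of the 15 members passed. Leaving out these libraries, 7.03% of all genes were called lower and 4.68% higher.

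The integrin *Itgax* (CD11c) was listed at 103, 72 and 76.5 FPKM in HFD mice and 14.2, 10.2 and 24.3 FPKM in LU mice (log2 fold change -2.37, standard error 0.48, adjusted p = 0.00431). The macrophage elastase *Mmp12* fell from 440.0 to 98.8 FPKM, log2 fold change -2.22, but its call was lost in 5 of the 12 fits that each left out 1 mouse, namely those without each of the 3 HFD mice and without LU mice 2 and 3. The osteopontin gene *Spp1* fell from 34.5 to 6.58 FPKM, log2 fold change -2.29. *Lipa*, the lysosomal acid lipase, was listed at 268, 223 and 259 FPKM in HFD mice and 64.4, 58.6 and 93.8 FPKM in LU mice (log2 fold change -1.80, standard error 0.22, adjusted p = 0.000284). The galectin *Lgals3* fell from 699 to 222 FPKM, log2 fold change -1.71, and the signaling adaptor *Tyrobp*, the partner of the TREM2 receptor, fell from 288 to 92.1 FPKM, log2 fold change -1.64. *Fabp5*, a fatty acid binding protein, was the member not called, at 435 to 316 FPKM (adjusted p = 0.199).

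**Figure D3:**
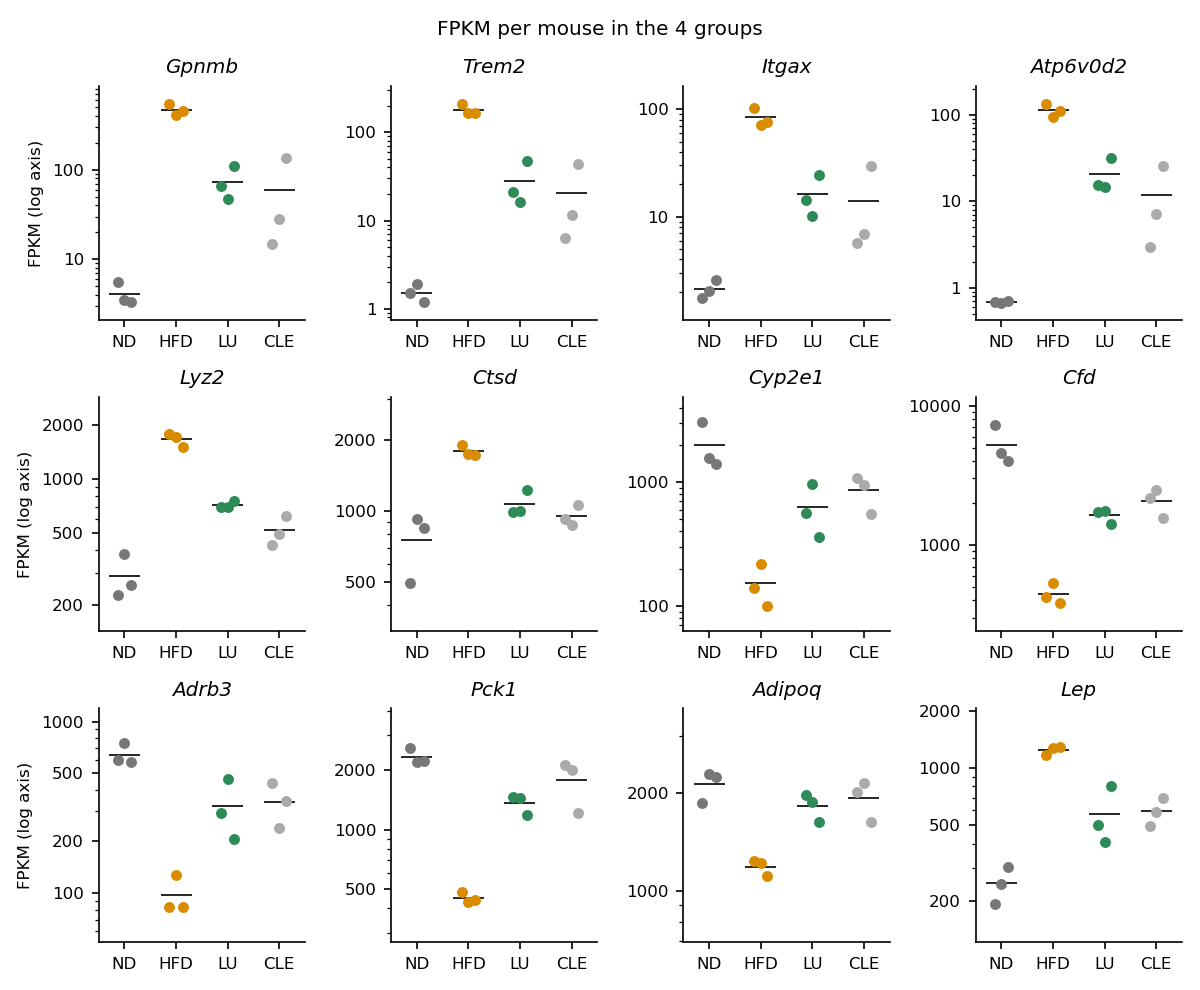
FPKM on a log axis for 12 genes, 1 panel each, with 3 mice per group as points and the group mean as a line. ND and CLE are shown for reference. For the 6 genes from *Gpnmb* to *Ctsd* and for *Lep* every LU mouse lies between the HFD and the ND mice, and for *Cyp2e1*, *Cfd*, *Adrb3*, *Pck1* and *Adipoq* every LU mouse lies above every HFD mouse.

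Genes that mark macrophages and monocytes as such fell as well, with a median log2 fold change of -1.27. Their summed level was 2770 to 3220 FPKM in the HFD mice and 1170 to 1290 FPKM in the LU mice. *Adgre1*, which encodes the F4/80 antigen, was listed at 164, 131 and 143 FPKM in HFD mice and 33.3, 30.7 and 43 FPKM in LU mice (log2 fold change -2.01, standard error 0.23, adjusted p = 0.000214). *Cd68*, a glycoprotein of macrophage lysosomes, was listed at 285, 236 and 276 FPKM in HFD mice and 53.9, 51.9 and 88.7 FPKM in LU mice (log2 fold change -2.06, standard error 0.29, adjusted p = 0.000571). *Lyz2*, the lysozyme of myeloid cells, had 1667 ± 145 FPKM in the HFD group and 717 ± 35.5 FPKM in the LU group (SD, n = 3 mice each). The LU values of these genes lay clear of the HFD values. *Csf1r*, the receptor for the growth factor that maintains macrophages, fell from 141 to 55.1 FPKM, log2 fold change -1.34, and the integrin subunit *Itgam* (CD11b) fell from 60.0 to 16.5 FPKM, log2 fold change -1.82. The members not called were *Aif1* (-0.50), *Ccr2* (-0.48) and *Mertk* (-0.05), of which *Mertk*, a receptor for dying cells, was at 23.6 to 22.8 FPKM. Between 12 and 13 members were called in the fits without 1 mouse.

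Genes of resident, tissue-repair macrophages did not move as a block. Of 11 tested, *Retnla*, a secreted protein of alternatively activated macrophages, rose (from 383 to 763 FPKM, log2 fold change 0.97), while the folate receptor *Folr2* and the mannose receptor *Mrc1* fell (-1.13 and -0.75). *Retnla* was listed at 375, 457 and 316 FPKM in HFD mice and 946, 794 and 549 FPKM in LU mice, and its call was lost without HFD mouse 18 or without LU mouse 2. The hyaluronan receptor *Lyve1* was at 8.11 to 9.36 FPKM and the hemoglobin scavenger receptor *Cd163* at 18.2 to 21.7 FPKM, neither of them called. The median over the 11 genes was 0.06, and it was -0.25 without the libraries labelled R.

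**Figure D4:**
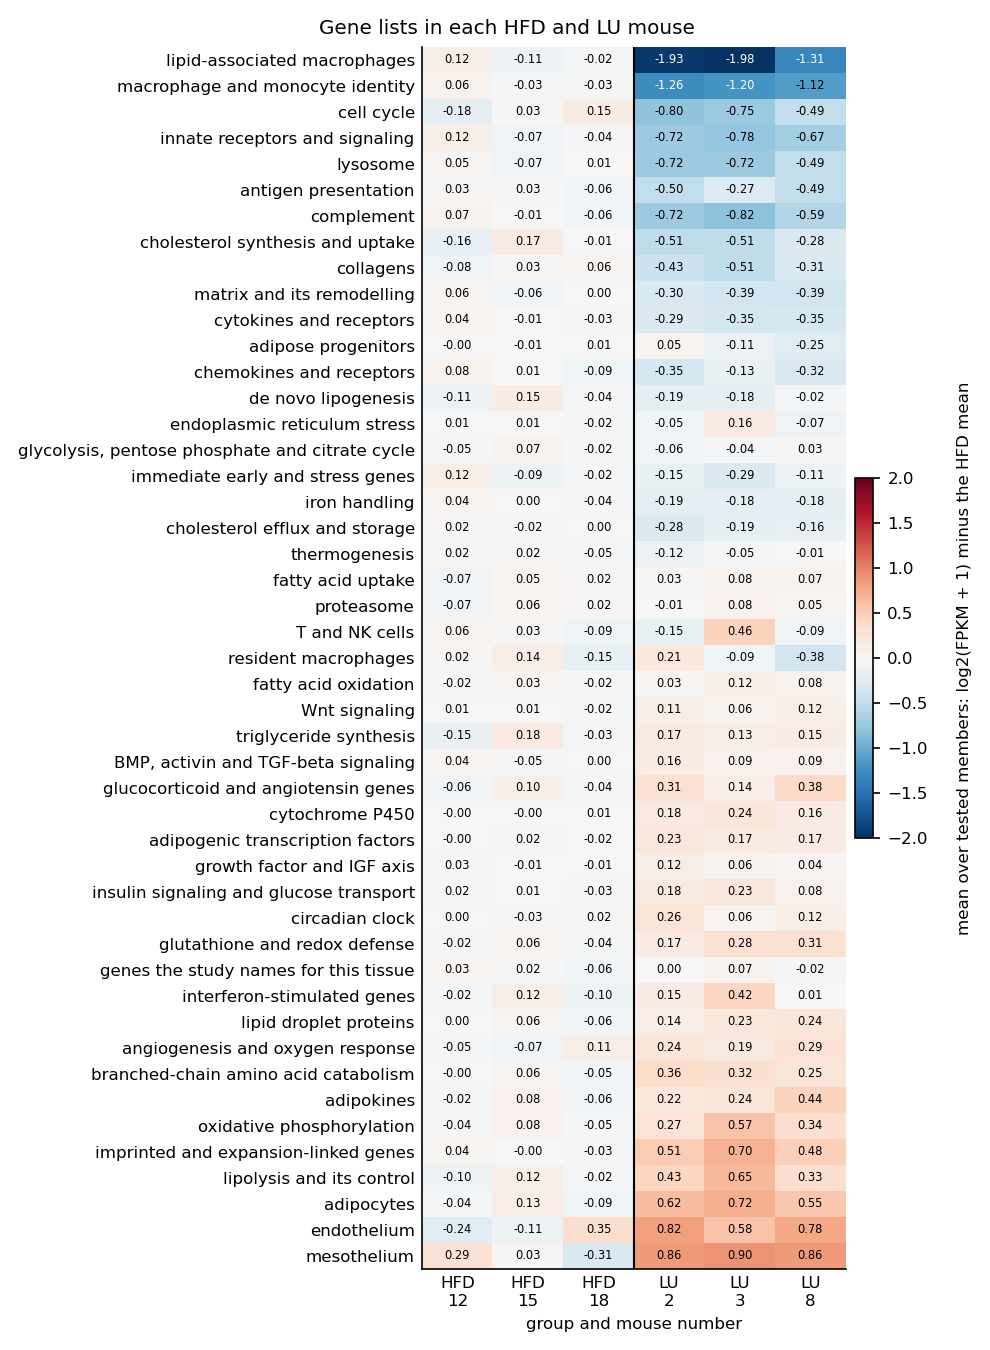
Rows are gene lists with at least 8 tested members, columns the 3 HFD and 3 LU mice, and each cell the mean over the members of log2(FPKM + 1) minus the HFD mean (*Scd1* left out). LU mouse 8 has the smallest fall of the LU mice in lipid-associated macrophages (-1.31, against -1.93 and -1.98) and in the lysosome (-0.49, against -0.72 and -0.72), and the largest distance of an HFD mouse from its group mean is 0.35, of HFD mouse 18 in the endothelium.

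The lysosome is the compartment in which cells degrade proteins, glycans and lipids at acid pH. Of 59 tested genes, 28 fell and 0 rose. With an adjusted p under 0.05, 39 were lower and 1 higher, against 13.6% and 13.2% among all genes. All LU mice lay below all HFD mice in 48, against 22.1% of all genes. All 8 cathepsins, the proteases of this compartment, fell, with a median log2 fold change of -0.88. Of 13 subunits of the proton pump that acidifies lysosomes, 5 fell and the median was -0.41. The E-box CACGTG and its extended form TCACGTGA are the letters that the MiT/TFE transcription factors are known to bind before many lysosomal genes. Promoters of 2 called members are shown here. Both were picked for carrying TCACGTGA and then by the size of their fall. Members that fell more, such as *Atp6v0d2*, are not shown. The match in these promoters was therefore fixed in advance and is not a result. They are 250 bases of RefSeq promoter sequence before the start of transcription in GRCm38.p6 (chrX:134601006-134601255, minus strand, and chr16:44139260-44139509, minus strand), written 5′ to 3′ on the gene's strand, with TCACGTGA in capitals.
Gla: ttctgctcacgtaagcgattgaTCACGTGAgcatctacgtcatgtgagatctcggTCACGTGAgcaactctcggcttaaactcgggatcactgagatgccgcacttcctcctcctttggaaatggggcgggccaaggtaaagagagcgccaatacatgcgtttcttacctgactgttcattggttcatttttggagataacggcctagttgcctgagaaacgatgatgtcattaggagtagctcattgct
Atp6v1a: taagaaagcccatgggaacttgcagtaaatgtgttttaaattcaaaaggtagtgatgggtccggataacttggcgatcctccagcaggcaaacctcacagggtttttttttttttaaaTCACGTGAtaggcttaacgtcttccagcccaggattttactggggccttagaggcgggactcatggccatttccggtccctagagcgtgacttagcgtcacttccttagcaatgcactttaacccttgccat

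CACGTG, on both strands, was found in 7 of 24 promoters of the lysosome genes called lower (29.2%, 20 of 28 genes matched by symbol), in 7 of 30 promoters of the other tested lysosome genes (23.3%), and in 6.02% of all 32851 promoters in the table. The longer TCACGTGA, which contains it, was found in 5 of 24 (20.8%), 1 of 30 (3.33%) and 0.785%. *Gla*, the alpha-galactosidase with 2 such matches, fell from 14.6 to 4.68 FPKM, log2 fold change -1.51. *Atp6v1a*, a catalytic subunit of the proton pump with 1 match, was listed at 123, 102 and 109 FPKM in HFD mice and 51.2, 47.2 and 57.5 FPKM in LU mice (log2 fold change -1.09, standard error 0.12, adjusted p = 0.000202). Of the other motifs searched in called genes, on both strands, GAGGAAGT, a site of the myeloid factor PU.1, was in 1 of 9 promoters of macrophage identity genes (11.1%, against 2.44% of all). TTTCCCGC, of E2F, was in 0 of 19 promoters of cell cycle genes (0.895% of all), TCACNCCAC, of the sterol factor SREBP, in 0 of 7 of cholesterol synthesis genes (1.05%), and the palindromic NRF1 site in 0 of 5 of oxidative phosphorylation genes (0.782%). The motifs were chosen with the results known, and a match describes the letters only.

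The macrophage form of a pump subunit, *Atp6v0d2*, fell most in the lysosome list, from 134, 94.3 and 111 FPKM in the HFD mice to 15.6, 14.7 and 31.6 FPKM in the LU mice (log2 fold change -2.47, standard error 0.52, adjusted p = 0.00537). Its adjusted p without the libraries with the letter R was 0.0572. The ubiquitous subunit *Atp6v0d1* was at 61.5 to 60.3 FPKM (adjusted p = 0.86). Cathepsin K (*Ctsk*) and cathepsin S (*Ctss*), of bone-resorbing cells and antigen-presenting cells, fell by 1.92 and 1.65 on the log2 scale. Cathepsin B (*Ctsb*) fell from 1169 to 608 FPKM, log2 fold change -0.95. The most abundant member was *Psap*, the precursor of the saposins that help degrade sphingolipids, at 2753, 2501 and 2694 FPKM in HFD mice and 1245, 1255 and 1546 FPKM in LU mice (log2 fold change -0.98, standard error 0.13, adjusted p = 0.000509). *Ctsd*, cathepsin D, had 1792 ± 97.2 FPKM in the HFD group and 1077 ± 134 FPKM in the LU group (SD, n = 3 mice each), and was called only while HFD mouse 12 and LU mice 2 and 3 were all included. *Ctsd* overlaps *Gm49369* on the same strand over 6757 bases, and reads may be shared between them, so its value is uncertain.

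Not every lysosomal gene was lower. *Gaa*, which degrades glycogen, was at 79.9 to 80.6 FPKM, the sphingomyelinase *Smpd1* at 37.1 to 39.3 FPKM, the calcium channel *Mcoln1* at 21.7 to 21.4 FPKM, and none of these was called. The acid phosphatase *Acp5* was higher with an adjusted p of 0.0035, at a fold below 1.5 (log2 fold change 0.41). The macrophage identity genes, whose sum fell from at least 2770 to at most 1290 FPKM, moved with the lysosome list, and their part in its result was not tested.

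Storage and export of cholesterol are handled by some of the same cells. *Soat1*, which esterifies cholesterol for storage, fell from 48.5 to 16.2 FPKM, log2 fold change -1.53, and *Nceh1*, which hydrolyses the esters, fell from 46.3 to 11.2 FPKM, log2 fold change -1.97. The phospholipid transfer protein *Pltp* fell from 397 to 198 FPKM, log2 fold change -1.02. In the opposite direction, *Apoe*, the apolipoprotein of macrophages and adipocytes, was listed at 3280, 3008 and 2435 FPKM in HFD mice and 4173, 5058 and 4352 FPKM in LU mice (log2 fold change 0.64, standard error 0.13, adjusted p = 0.00462), with its call lost without HFD mouse 18 or without LU mouse 3. The sterol hydroxylase *Cyp27a1* rose (log2 fold change 0.66), as did *Mylip*, a ubiquitin ligase (0.59, lost in 8 of the 12 fits without 1 mouse, those of each HFD and each LU mouse among them). The exporters *Abca1* and *Abcg1* were at 90.0 to 87.5 FPKM and 57.7 to 43.5 FPKM without a call. In all, 3 of the 15 tested genes rose and 3 fell, and without HFD mouse 18 the rises were reduced to 1.

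Of 17 iron genes, 5 fell and 0 rose. They were *Slc11a1*, the metal transporter of phagosomes (from 108 to 38.6 FPKM, log2 fold change -1.49), heme oxygenase 1 (*Hmox1*, from 58.3 to 27.1 FPKM, log2 fold change -1.07), the ferrireductase *Steap3* (-1.06), the heme carrier *Hpx* (-1.29) and the ferritin light chain *Ftl1*. *Ftl1* was listed at 1580, 1461 and 1445 FPKM in HFD mice and 798, 1049 and 1054 FPKM in LU mice (log2 fold change -0.64, standard error 0.13, adjusted p = 0.00533), and was not called without LU mouse 2. The heavy chain *Fth1* was at 1333 to 1326 FPKM, with a log2 fold change of -0.01.

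Of 26 innate immune receptors and signaling genes, 13 fell and 0 rose. Of 9 Toll-like receptors tested, which recognise microbial molecules, 7 fell, and all 4 genes of the phagocyte NADPH oxidase fell. *Tlr13* was listed at 23.2, 18.3 and 20.2 FPKM in HFD mice and 3.06, 2.89 and 5.83 FPKM in LU mice (log2 fold change -2.17, standard error 0.28, adjusted p = 0.000375). *Cybb*, the catalytic subunit of the oxidase, was listed at 91.7, 71 and 72.1 FPKM in HFD mice and 24.1, 18.2 and 21.5 FPKM in LU mice (log2 fold change -1.83, standard error 0.18, adjusted p = 0.000118). *Tlr2* and *Tlr4*, named in the study for this tissue, had log2 fold changes of -0.91 (called) and -0.50 (adjusted p = 0.0172, fold under 1.5). The inflammasome adaptor *Pycard* fell from 9.88 to 4.47 FPKM and *Casp1*, its protease, from 17.5 to 8.32 FPKM, and the sensor *Nlrp3* was at 1.29 to 1.09 FPKM. The NF-kB subunits *Rela*, *Nfkb1*, *Nfkb2* and *Relb* differed by 0.11, -0.20, -0.23 and -0.09 on the log2 scale, without a call. Between 13 and 14 of the 26 members were called lower in the fits without 1 mouse. The innate, complement, antigen presentation, chemokine and cytokine lists moved in the same direction as the sum of the macrophage identity genes, whose part in these results was not tested.

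Complement, a system of blood proteins that mark particles for phagocytes, had 7 of 17 members called lower. The central component *C3* was listed at 895, 852 and 861 FPKM in HFD mice and 431, 302 and 419.6 FPKM in LU mice (log2 fold change -1.19, standard error 0.14, adjusted p = 0.000208). The anaphylatoxin receptors *C3ar1* and *C5ar1* fell by 2.18 and 1.56 on the log2 scale, and the receptor subunit *Itgb2* fell from 151 to 42.5 FPKM, log2 fold change -1.85. *C2* was the member that rose (from 24.4 to 44.4 FPKM, log2 fold change 0.84), and *C4b* was at 368 to 372 FPKM. The class II antigen presentation genes were lower with smaller folds. The transactivator *Ciita* and the loading chaperone *H2-DMb1* fell (-0.74 and -1.11), and *Cd74*, *H2-Aa* and *H2-Eb1* had adjusted p values under 0.05 with folds under 1.5. *Cd74*, the invariant chain, was listed at 1124, 1059 and 991 FPKM in HFD mice and 719, 843 and 728 FPKM in LU mice.

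Of 27 chemokines and receptors, 6 fell and 1 rose. The receptor *Cxcr4* fell (from 23 to 10.9 FPKM, lost without HFD mouse 15 or 18 or LU mouse 2 or 3), as did *Ccl9*, *Ccl6*, *Ccl3* and *Cxcl14*. *Ccl9*, a myeloid cell chemokine, was listed at 132, 129 and 128 FPKM in HFD mice and 49.7, 60.4 and 68.6 FPKM in LU mice (log2 fold change -1.12, standard error 0.19, adjusted p = 0.0015). *Cxcl9*, which attracts T cells, rose from 14.7 to 25.6 FPKM, log2 fold change 0.75, but not without LU mouse 3. *Ccl2*, the monocyte chemoattractant, was listed at 33.4, 24.9 and 24.4 FPKM in HFD mice and 12.4, 11.1 and 17.2 FPKM in LU mice and was not called (adjusted p = 0.0539). Of 25 cytokines and receptors, 6 fell, led by the receptor *Il7r* (from 28 to 6.76 FPKM, log2 fold change -1.92) and the interleukin 1 antagonist *Il1rn* (from 25 to 7.85 FPKM, log2 fold change -1.56). Without LU mouse 3, 3 of these 25 were called, and *Il1rn* was not among them. Leaving out the libraries labelled R also left 3 called. *Tnf* was low in both groups, at 1.22, 1.19 and 1.59 FPKM in HFD mice and 0.426, 0.323 and 0.797 FPKM in LU mice, and was called (log2 fold change -0.63, adjusted p = 0.0127), but not without HFD mouse 18 or without LU mouse 3.

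Mast cells store proteases in granules. Of 6 tested mast cell genes, the proteases *Mcpt4*, *Cma1*, *Tpsb2* and *Cpa3* fell, with *Mcpt4* going from 3.87 to 1.01 FPKM, log2 fold change -1.31, whereas the receptor *Kit* was at 3.31 to 4.95 FPKM without a call. Without HFD mouse 12, 2 of these 4 calls were left, and calls were lost for *Cpa3* (HFD 12, LU 3, LU 8, -1.19 to -0.73) and *Tpsb2* (HFD 12, LU 8, -1.30 to -0.82). The neutrophil and monocyte gene *S100a8* was listed at 69.7, 114 and 118 FPKM in HFD mice and 20.2, 28.2 and 53 FPKM in LU mice and fell, with its call lost without HFD mouse 18 or without LU mouse 2, and *Csf3r* fell from 3.9 to 1.85 FPKM, log2 fold change -0.78. *S100a9*, the partner of *S100a8*, was listed below 1 FPKM on average in both groups. Of 19 T and NK cell genes, 8 were high enough to be tested and 0 were called by limma, with 0 at the adjusted p alone and 0 at an unadjusted p under 0.05. Their sum was 16.3 to 20.5 FPKM in HFD and 16.2 to 33.6 FPKM in LU. Of the B cell genes 2 were tested, of which *Cd22*, which some macrophages also express, fell (from 4.38 to 1.99 FPKM, log2 fold change -0.88, lost in 7 of the 12 fits without 1 mouse, those of each HFD mouse and of LU mice 2 and 3 among them, and also without the libraries labelled R).

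Interferon-stimulated genes are switched on by the cytokines of the antiviral response. Of 31 tested, 1 rose (*Isg20*, 0.65), and 2 fell, the transcription factor *Irf5* (from 36.5 to 15.1 FPKM, log2 fold change -1.22) and *Oas1a* (-0.82, lost without HFD mouse 12 or 15 or without LU mouse 8). The shares of 3.23% higher and 6.45% lower are near those among all genes, 4.81% and 7.64%. The median log2 fold change of the 31 genes was 0.25. Without the libraries labelled R, 1 was called lower. *Ifit1* was at 2.71 to 3.45 FPKM.

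Genes of DNA replication and mitosis were lower in LU, with 21 of 33 called, a median log2 fold change of -0.75 and no gene called higher. All LU mice were below all HFD mice in 25 of them, against 22.1% of all genes. *Mki67*, present in dividing cells, was listed at 4.8, 5.88 and 6.29 FPKM in HFD mice and 2.1, 2.3 and 2.77 FPKM in LU mice (log2 fold change -0.97, standard error 0.15, adjusted p = 0.000994). The topoisomerase *Top2a* was listed at 6.62, 8.48 and 9.14 FPKM in HFD mice and 3.27, 3.76 and 4.07 FPKM in LU mice (log2 fold change -0.94, standard error 0.19, adjusted p = 0.00433). *Mcm5*, of the replicative helicase, fell from 7.2 to 2.64 FPKM, log2 fold change -1.17, and *Pcna*, the polymerase clamp, fell from 67.8 to 33.8 FPKM, log2 fold change -0.99. Levels were low, with the mean of most members under 10 FPKM, and *Mcm7* and *Ccnd1* were at 14.3 to 14.9 FPKM and 19.9 to 18.4 FPKM. Without HFD mouse 18, 13 of the 33 were called. The sum of the macrophage identity genes moved in the same direction, and its part in the fall of these genes was not tested.

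Of 25 immediate early and stress genes, 4 fell and 1 rose. *Atf3*, a stress-induced transcription factor, was listed at 80.1, 64.5 and 68.5 FPKM in HFD mice and 12.8, 11 and 19 FPKM in LU mice (log2 fold change -2.27, standard error 0.44, adjusted p = 0.00357). *Egr2*, which also acts in macrophages, fell (-1.80), and *Fos* fell from 49.4 to 25.9 FPKM, log2 fold change -0.94, with its call lost in the fit without each of the 3 HFD mice and in those without LU mouse 3 or 8. *Ier3* rose from 2.54 to 6.77 FPKM, log2 fold change 1.13. *Jun*, *Junb* and *Egr1* had log2 fold changes of 0.41, -0.01 and 0.45, without a call.

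Collagens form the fibres around adipocytes. Of 23 tested, 7 fell and 0 rose, with a median log2 fold change of -0.39. *Col3a1*, of reticular fibres, was listed at 697, 789 and 832 FPKM in HFD mice and 355, 393 and 336 FPKM in LU mice (log2 fold change -1.09, standard error 0.21, adjusted p = 0.003). *Col1a1*, of the main fibrillar collagen, was listed at 173, 181 and 209.5 FPKM in HFD mice and 81.2, 106 and 100.5 FPKM in LU mice (log2 fold change -0.97, standard error 0.17, adjusted p = 0.00177). *Col1a2*, *Col5a2*, *Col8a1*, *Col6a3* and *Col6a5* also fell, the last with its call lost in 10 of the 12 fits without 1 mouse. The basement membrane collagens *Col4a1* and *Col4a2* were at 346 to 326 FPKM and 298 to 278 FPKM, with log2 fold changes of -0.09 and -0.12. The count of collagens lower was 5 to 8 in the fits without 1 mouse.

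Among 45 other genes of the matrix and its remodelling, 15 fell and 4 rose. *Adam8*, a surface protease of myeloid cells, was listed at 109, 93.1 and 113 FPKM in HFD mice and 16.3, 13.8 and 33.6 FPKM in LU mice (log2 fold change -2.35, standard error 0.48, adjusted p = 0.00444). Fibronectin (*Fn1*) fell from 274 to 148 FPKM, log2 fold change -0.89, fibrillin 1 (*Fbn1*) fell from 92.4 to 49.2 FPKM, log2 fold change -0.92 and lumican (*Lum*) fell from 102 to 47 FPKM, log2 fold change -1.11. The protease inhibitors differed in direction. *Timp1* fell from 15 to 4.4 FPKM, log2 fold change -1.60 and *Timp2* fell from 204 to 126 FPKM, log2 fold change -0.69, whereas *Timp3* rose from 67.7 to 139 FPKM, log2 fold change 1.03 and *Timp4* rose from 70.1 to 135 FPKM, log2 fold change 0.94. *Eln*, elastin, rose from 41.1 to 75 FPKM, log2 fold change 0.84, and *Mmp9* rose from a level under 1 FPKM (log2 fold change 0.73). Without HFD mouse 12, 2 of these rises and 11 of the falls were called, and calls were lost for *Eln* (HFD 12, LU 3, 0.74 to 0.98) and *Mmp9* (HFD 12, HFD 18, LU 2, LU 3, 0.52 to 0.96). *Sparc*, a collagen-binding protein and the most abundant member, was at 3857 to 3300 FPKM, and *Lox*, which cross-links collagen, at 67.4 to 57.8 FPKM.

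Markers of adipose progenitors, the fibroblast-like cells that give rise to adipocytes, had 1 of 10 tested members called, *Ly6a* (from 106 to 173 FPKM, log2 fold change 0.69, lost without LU mouse 3). *Pdgfra*, a receptor of these cells, was at 18.9 to 12 FPKM (log2 fold change -0.65, adjusted p = 0.0872) and was called lower without the libraries labelled R (-0.90), and *Dcn* at 488 to 483 FPKM.

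Genes of adipocytes went the other way. Of 15 tested, 7 rose and 1 fell. In the higher direction 12 had an adjusted p under 0.05, against 13.2% of all genes. All LU mice were above all HFD mice in 13, against 25.6% of all genes. The sum was 21200 to 24000 FPKM in HFD and 34700 to 41800 FPKM in LU. *Cfd*, adipsin, a serine protease secreted by adipocytes (chromosome 10, 79890853 to 79892655 in GRCm38), was listed at 425, 532 and 383 FPKM in HFD mice and 1723, 1754 and 1416 FPKM in LU mice (log2 fold change 1.87, standard error 0.23, adjusted p = 0.000255). *Car3*, a carbonic anhydrase of adipocytes, was listed at 3687, 3862 and 3270 FPKM in HFD mice and 8139, 9545 and 6750 FPKM in LU mice (log2 fold change 1.16, standard error 0.13, adjusted p = 0.000218). *Fabp4*, the adipocyte fatty acid carrier and the most abundant called gene, was listed at 10460, 11880 and 10660 FPKM in HFD mice and 15190, 19940 and 17330 FPKM in LU mice (log2 fold change 0.66, standard error 0.10, adjusted p = 0.000801), a rise that was not called without LU mouse 3 and that became 0 after quantile normalization, which gives the top gene of every library the same value. *Plin4*, a lipid droplet coat protein, rose from 592 to 1138 FPKM, log2 fold change 0.93. *Pparg*, the transcription factor of adipocyte identity, had an adjusted p of 0.0387 with a fold under 1.5 (66.4 to 89.2 FPKM), and *Cebpa* was at 148 to 172 FPKM.

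Hormones and secreted proteins of fat, the adipokines, had 11 of 25 members called higher and 2 lower. *Lep*, leptin, the satiety hormone whose level follows fat mass, was listed at 1172, 1271 and 1291 FPKM in HFD mice and 500.1, 410.2 and 806 FPKM in LU mice (log2 fold change -1.18, standard error 0.23, adjusted p = 0.00349). *Adipoq*, adiponectin, which raises insulin sensitivity, was listed at 1231, 1220 and 1107 FPKM in HFD mice and 1975, 1883 and 1629 FPKM in LU mice (log2 fold change 0.62, standard error 0.12, adjusted p = 0.00409). It lay above every HFD mouse in all 3 LU mice, and its fold was under 1.5 without HFD mouse 18 or without LU mouse 2. *Retn*, resistin, was listed at 219, 326 and 217 FPKM in HFD mice and 749.8, 972 and 627 FPKM in LU mice (log2 fold change 1.62, standard error 0.22, adjusted p = 0.000483). The vitamin A carrier *Rbp4* rose from 177 to 369.9 FPKM, log2 fold change 1.09, and *Apln*, apelin, rose from 4.3 to 11.7 FPKM, log2 fold change 1.32, though not without HFD mouse 15. Without that mouse, 7 of the 11 adipokine rises were called. *Hp*, haptoglobin, an acute phase protein, was listed at 4129, 5350 and 5179 FPKM in HFD mice and 2141, 2344 and 4054 FPKM in LU mice (log2 fold change -0.83, standard error 0.26, adjusted p = 0.037), with LU mouse 8 near the HFD values, and its call was lost in the fit without each of the 3 HFD mice and in those without LU mouse 2 or 3. *Saa3* was at 102 to 42.9 FPKM without a call (adjusted p = 0.12).

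**Figure D5:**
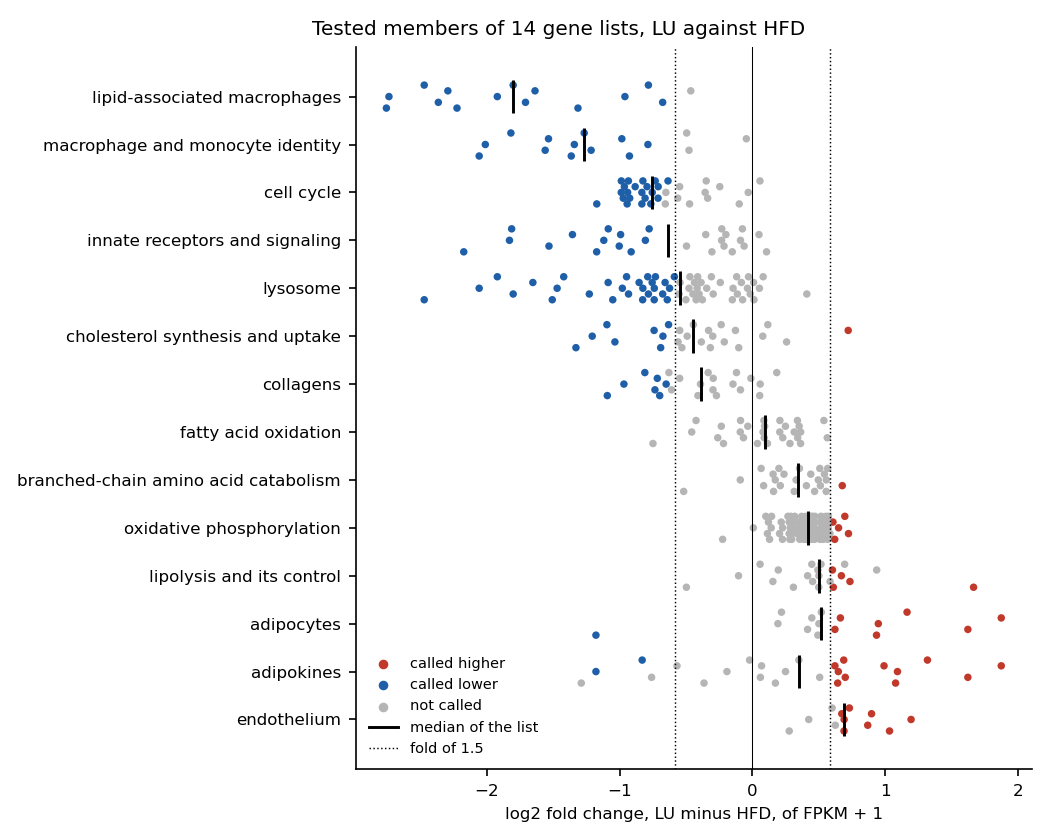
Each point is a tested member of one of 14 gene lists, placed by its log2 fold change of LU against HFD (log2(FPKM + 1) scale), with called members in red or blue, the list's median as a black bar and the fold of 1.5 as dotted lines. Lipid-associated macrophage members reach -2.76, adipocyte and adipokine members reach 1.87, and oxidative phosphorylation members lie mostly between 0 and 0.72 with 5 called.

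Lipolysis is started by adrenergic receptors and carried out by lipases on the surface of the droplet. Of 21 tested genes, 5 rose and 0 fell, 11 had an adjusted p under 0.05 in the higher direction and 1 in the lower, and the median log2 fold change was 0.50. *Adrb3*, the beta 3 adrenergic receptor of adipocytes, was listed at 82.4, 127 and 82.3 FPKM in HFD mice and 294, 459 and 208 FPKM in LU mice (log2 fold change 1.67, standard error 0.29, adjusted p = 0.00187). *Pde3b*, through which insulin restrains lipolysis, rose from 68.6 to 111 FPKM, log2 fold change 0.67, and so did the prostaglandin receptor *Ptger3* (0.73), the natriuretic peptide receptor *Npr1* (0.60) and the glycerol channel *Aqp7* (0.61). Without HFD mouse 12, 3 of these were called, as was the case without the libraries labelled R, and calls were lost for *Pde3b* (HFD 12, HFD 18, LU 2, LU 3, 0.56 to 0.82), *Aqp7* (HFD 12, LU 3, 0.55 to 0.65) and *Npr1* (HFD 15, LU 2, 0.54 to 0.65). Of the lipases, *Pnpla2* and *Lipe* had adjusted p values under 0.05 with folds under 1.5, and *Mgll*, which acts on monoglycerides, was not called (log2 fold change 0.15, adjusted p = 0.163). *Pnpla2*, adipose triglyceride lipase, was listed at 809, 770.5 and 704 FPKM in HFD mice and 1034, 1198 and 1003 FPKM in LU mice (log2 fold change 0.50, adjusted p = 0.0239), and *Lipe*, hormone-sensitive lipase, was at 508 to 693 FPKM (0.45). *G0s2*, the inhibitor of adipose triglyceride lipase, was at 215 to 309 FPKM (0.52). *Adora1*, an adenosine receptor that restrains lipolysis, was lower with an adjusted p of 0.0263 (37.4 to 26.2 FPKM).

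Of 12 lipid droplet proteins, *Plin4* and *Plin5* (LU 8, 0.56 to 0.86) rose and *Plin2*, found in lipid-laden macrophages as well as adipocytes, fell (886, 808 and 854 FPKM in HFD mice and 399.9, 419.9 and 493 FPKM in LU mice, log2 fold change -0.96, standard error 0.17, adjusted p = 0.00241). *Cidec*, which enlarges droplets, was at 1924 to 2754 FPKM with an adjusted p of 0.00925. Triglyceride synthesis was split. *Pck1*, which makes the glycerol backbone from non-sugar sources, was listed at 483, 429.5 and 442 FPKM in HFD mice and 1463, 1448 and 1178 FPKM in LU mice (log2 fold change 1.59, standard error 0.18, adjusted p = 0.000214). The acyltransferases *Mogat1* and *Gpat3* rose (from 6.79 to 16.1 FPKM, log2 fold change 1.14, and from 19.1 to 40.2 FPKM, log2 fold change 1.04). *Gpd1*, which makes glycerol phosphate from glucose, was listed at 342, 434 and 401 FPKM in HFD mice and 179.7, 203 and 235 FPKM in LU mice and fell, with its call lost without HFD mouse 15 or 18 or without LU mouse 2 or 3. *Dgat1* and *Dgat2*, which add the last fatty acid, were at 94.2 to 102 FPKM and 613 to 445 FPKM, without a call.

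In de novo lipogenesis, the synthesis of fatty acids from sugar, only *Scd1* of 20 genes was called. The desaturase *Scd1* was at 9764, 10170 and 8592 FPKM on the unsupplemented diet, while it was listed at 0 in the 3 LU mice and also in the 3 ND and the 3 CLE mice. A listed 0 can be a failed estimate in the authors' quantification, so no fold is given for it. Its paralogue *Scd2*, whose reads may be shared with it, was at 164 to 78.2 FPKM (adjusted p = 0.132). *Fasn*, fatty acid synthase, was listed at 299, 445 and 301 FPKM in HFD mice and 250.5, 275 and 304 FPKM in LU mice, and *Acly*, *Acaca* and *Srebf1* were at 91.5 to 71.2 FPKM, 46 to 66.7 FPKM and 126 to 149.6 FPKM. None of these passed the adjusted p. Without the libraries labelled R, 1 of the 20 was called higher and 2 lower.

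Uptake of fatty acids from blood fat had 3 of 22 members called higher, *Fabp4*, the capillary anchor of lipoprotein lipase *Gpihbp1* (from 73.4 to 168 FPKM, log2 fold change 1.19) and the fatty acid receptor *Ffar4* (from 5.13 to 12.4 FPKM, log2 fold change 1.12). Of the 22, 2 fell, among them *Lrp1*, a large endocytic receptor (from 232 to 145 FPKM, log2 fold change -0.68). *Lpl*, lipoprotein lipase, was at 3907 to 3467 FPKM, and *Cd36*, the fatty acid translocase, at 2121 to 2177 FPKM, with log2 fold changes of -0.17 and 0.04.

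Of 29 genes of fatty acid oxidation, 0 were called, although limma gave 14 an unadjusted p under 0.05, 7 an adjusted p under 0.05 in the higher direction and 2 in the lower. Without the libraries labelled R, 1 was called higher. *Echs1* and *Eci1*, enzymes of the mitochondrial cycle, had the highest log2 fold changes (0.54 and 0.56), and *Cpt1a*, which lets fatty acids into mitochondria, was at 74.4 to 54.1 FPKM (-0.46). The thermogenic list had 14 of 22 members high enough to be tested, of which *Adrb3* and *Fgf21* rose and *Otop1* and *Gatm* fell (-1.35 and -1.04). *Fgf21*, a hormone of energy use, was at 1.04, 0.833 and 0.74 FPKM in HFD mice and 1.52, 1.84 and 2.49 FPKM in LU mice, with its call lost without HFD mouse 15 or 18 or without LU mouse 8. *Ppargc1a*, a coactivator of mitochondrial genes, was at 1.3 to 1.91 FPKM, *Cidea* at 1.14 to 1.29 FPKM, *Prdm16* at 3.14 to 3.07 FPKM and *Cox8b* at 16.1 to 21.4 FPKM, and 0 of these 4 had an adjusted p under 0.05.

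Subunits of the respiratory chain and ATP synthase were higher in LU by small folds. Of 74 tested, 5 were called higher, which is near the share among all genes, but 45 had an adjusted p under 0.05 in the higher direction and 0 in the lower, against 13.2% higher among all genes. All LU mice were above all HFD mice in 64 of the 74, against 25.6% of all genes, and the median log2 fold change was 0.42. By complex, the median was 0.45 for 36 subunits of complex I, 0.23 for 4 of complex II, 0.41 for 9 of complex III, 0.44 for 9 of complex IV and 0.42 for 15 of ATP synthase. The adjusted p was under 0.05 in 25, 0, 7, 5 and 8 of them, in the same order. *Ndufb9*, of complex I, was listed at 99.5, 122 and 108 FPKM in HFD mice and 156, 204 and 177 FPKM in LU mice (log2 fold change 0.70, standard error 0.13, adjusted p = 0.00319). *Cox8a*, of complex IV, was listed at 307, 340.5 and 288 FPKM in HFD mice and 428, 556 and 461 FPKM in LU mice (log2 fold change 0.62, standard error 0.12, adjusted p = 0.00389), with its fold under 1.5 without HFD mouse 18 or without LU mouse 3. *Atp5b*, of ATP synthase and the most abundant member, was at 906 to 1232 FPKM (log2 fold change 0.44, adjusted p = 0.0186). LU mouse 3 was furthest from the HFD mice, with a mean difference of 0.57 against 0.27 and 0.34 in LU mice 2 and 8. The count called depended on which libraries entered, with 2 without LU mouse 3 and 17 without the libraries with the letter R. The sum of the adipocyte genes moved in the same direction and that of the macrophage genes in the other, and their part in this result was not tested.

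Enzymes that degrade branched-chain amino acids showed a like pattern. Of 24, 1 was called higher (4.17%), which is near the share of 4.81% among all genes, and 0 lower. It was *Bckdhb*, of the complex that commits these amino acids to oxidation (from 54.3 to 87.3 FPKM, log2 fold change 0.68). In the higher direction 13 had an adjusted p under 0.05, against 13.2% of all genes, and 0 in the lower. The median was 0.34. *Bckdha*, its partner subunit, was listed at 53.6, 55.2 and 52.4 FPKM in HFD mice and 75.9, 87.2 and 77.6 FPKM in LU mice (log2 fold change 0.57, adjusted p = 0.00427). The transaminase *Bcat1* was at 8.41 to 5.6 FPKM (adjusted p = 0.146). From 1 to 4 members were called in the fits without 1 mouse, and 2 without the libraries labelled R.

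Of 41 genes of glycolysis, the pentose phosphate path and the citrate cycle, 3 fell (7.32%) and 2 rose (4.88%). These shares are near those among all genes, 7.64% and 4.81%. Hexokinase 3 (*Hk3*), the form of myeloid cells, was listed at 40.9, 33.3 and 36.4 FPKM in HFD mice and 7.4, 5.49 and 12.9 FPKM in LU mice (log2 fold change -2.05, standard error 0.37, adjusted p = 0.0023). The pyruvate kinase *Pkm* fell from 298 to 180.0 FPKM, log2 fold change -0.73 and *Idh1* fell from 146 to 95.3 FPKM, log2 fold change -0.61, whereas *Pdk2*, which restrains the use of pyruvate, and *Ldhb* rose (0.82 and 0.62). Calls were lost for *Idh1* (HFD 12, HFD 15, HFD 18, LU 2, LU 3, LU 8, -0.66 to -0.56) and *Ldhb* (HFD 18, LU 8, 0.54 to 0.73). *Gapdh* was at 777 to 766 FPKM, with a log2 fold change of -0.02. *Actb*, the cytoplasmic actin often taken as a reference, fell, at 1261, 1091 and 1246 FPKM in HFD mice and 769.7, 718 and 813 FPKM in LU mice (log2 fold change -0.64, standard error 0.12, adjusted p = 0.00251).

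Of 31 genes of insulin signaling and glucose transport, 6 rose and 2 fell. The insulin receptor substrate *Irs2* rose from 30.0 to 50.3 FPKM, log2 fold change 0.73, *Trarg1*, which helps traffic the insulin-responsive transporter, rose from 155 to 251 FPKM, log2 fold change 0.69, and the transporter *Slc2a3* rose from 2.27 to 6.01 FPKM, log2 fold change 1.09. The phosphatase *Ptpn1*, which removes phosphate from the insulin receptor, was listed at 36.1, 34.4 and 36.6 FPKM in HFD mice and 23.1, 19.2 and 20.1 FPKM in LU mice and fell (log2 fold change -0.76, standard error 0.14, adjusted p = 0.00247). The receptor *Insr* was at 22.9 to 34.9 FPKM and *Akt2* at 115 to 161 FPKM, both with an adjusted p under 0.05 and a fold under 1.5. *Slc2a4*, the insulin-responsive transporter GLUT4, was at 41.6 to 47.6 FPKM (adjusted p = 0.36). The count of rises was 3 without HFD mouse 12, and calls were lost for *Grb10* (HFD 12, HFD 15, HFD 18, LU 3, 0.59 to 0.84), *Pde3b* (HFD 12, HFD 18, LU 2, LU 3, 0.56 to 0.82) and *Trib3* (HFD 12, HFD 15, LU 2, LU 3, 0.59 to 0.78) and, among the falls, for *Cbl* (HFD 12, -0.75 to -0.57).

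Glutathione and redox genes had 10 of 47 members called higher and 3 lower. Of 16 glutathione transferases, which attach glutathione to lipid aldehydes and foreign compounds, 7 rose and 0 fell. *Gsta4*, which acts on lipid peroxidation products, was listed at 2.31, 3.01 and 1.84 FPKM in HFD mice and 9.64, 11.4 and 7.16 FPKM in LU mice (log2 fold change 1.61, standard error 0.21, adjusted p = 0.000431). *Gpx3*, the secreted glutathione peroxidase, was listed at 76.8, 61.2 and 59.1 FPKM in HFD mice and 179, 199 and 112 FPKM in LU mice (log2 fold change 1.27, standard error 0.24, adjusted p = 0.00307). Related transferases can share reads, so values of single *Gsta*, *Gstm* and *Gstt* members are uncertain. The targets of the oxidant sensor NRF2 did not move together. *Hmox1* and *Srxn1* fell (-1.07 and -0.85), while *Nqo1*, *Gclc* and *Gclm* had log2 fold changes of 0.18, 0.17 and -0.13, without a call.

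*Cyp2e1*, a cytochrome P450 of ethanol and ketone oxidation (chromosome 7, 140763739 to 140774987 in GRCm38), had the largest rise among the called genes, at 139.9, 217 and 99.4 FPKM in HFD mice and 566, 972 and 363 FPKM in LU mice (log2 fold change 2.01, standard error 0.42, adjusted p = 0.00493). The LU mice differed among themselves by more than 2-fold and were all above the HFD mice. Among the 21 genes tested in its list, *Cyp4b1* and *Cyp27a1* rose and *Cyp2r1* and *Cyp51* fell. *Cyp4b1* was at 49.9 to 81.3 FPKM, with its call lost in the fits without HFD mouse 12 or 15 and in that without each of the 3 LU mice.

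Synthesis and uptake of cholesterol had 8 of 25 genes called lower and 1 higher, and 14 with an adjusted p under 0.05 in the lower direction. *Insig1*, a sensor that holds back sterol synthesis, was listed at 141, 253 and 180.2 FPKM in HFD mice and 83.9, 59.1 and 130.5 FPKM in LU mice (log2 fold change -1.10, standard error 0.31, adjusted p = 0.0243), and its relative *Insig2* rose from 53 to 88.5 FPKM, log2 fold change 0.72. Among the enzymes, *Dhcr7*, *Msmo1*, *Lss*, *Cyp51* and *Sqle* fell, with *Dhcr7* going from 19.4 to 7.82 FPKM, log2 fold change -1.21. *Hmgcs1* was at 119 to 142 FPKM. Leaving out the libraries labelled R, 3 were called lower and 0 higher, and without LU mouse 3, 5 were called lower. Calls were lost for *Insig1* (HFD 15, HFD 18, LU 2, LU 3, -1.39 to -0.82), *Insig2* (HFD 18, LU 2, LU 3, 0.65 to 0.83), *Lss* (LU 3, -0.87 to -0.55) and *Cyp51* (HFD 15, LU 2, -0.77 to -0.54).

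Endothelial genes, which mark the lining of vessels, were higher, with 8 of 12 called and a median log2 fold change of 0.69. The sum was 420 to 638 FPKM in HFD and 815 to 932 FPKM in LU. *Cldn5*, a junction protein, was listed at 58.7, 60.8 and 86.1 FPKM in HFD mice and 136, 136 and 144 FPKM in LU mice (log2 fold change 1.03, standard error 0.20, adjusted p = 0.0031). *Kdr*, the VEGF receptor 2, was listed at 23.7, 28.2 and 46.4 FPKM in HFD mice and 61.2, 53.6 and 63.9 FPKM in LU mice (log2 fold change 0.90, standard error 0.25, adjusted p = 0.023), and *Pecam1* was at 72.8 to 109 FPKM (adjusted p = 0.0619). HFD mouse 18 was the closest to the LU mice. The calls of *Kdr* and *Tie1* were lost without HFD mouse 12 or 15 or LU mouse 2 or 8. Of the 12 genes, 3 were called without HFD mouse 12 and 3 when the libraries labelled R were left out. Red blood cell genes moved with them. The sum of 5 globin and heme synthesis genes was 188 to 308 FPKM in HFD and 447 to 741 FPKM in LU, all 5 were above every HFD mouse in every LU mouse, and limma called 0 of 5, with 0 at the adjusted p alone and 4 at an unadjusted p under 0.05. Up to 3 of them were called in the fits without 1 mouse, and 3 were called higher without the libraries labelled R. Their part in the endothelial result was not tested.

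Of 23 genes of vessel growth and the response to oxygen, 5 rose and 2 fell. Among the rises, *Kdr* and *Tie1* are also counted in the endothelial list and *Apln* in the adipokine list. The vascular growth factors *Vegfa* and *Vegfb* rose (from 123 to 197 FPKM, log2 fold change 0.65, and from 24.2 to 38.4 FPKM, log2 fold change 0.64), and *Nrp2* and *Angpt1* fell (-0.60 and -0.64). *Angpt1* was higher, at a log2 fold change of 0.18 with an adjusted p of 0.782, when the transcript with the highest mean was used in place of the sum. Without the libraries labelled R, 3 of the rises and 1 of the falls were called. Without HFD mouse 15, 2 of the rises were called, and without HFD mouse 12, 0 of the falls, with calls lost for *Vegfa* (LU 3, 0.44 to 0.79), *Nrp2* (HFD 12, HFD 15, HFD 18, CLE 4, LU 3, LU 8, -0.72 to -0.43) and *Angpt1* (HFD 12, LU 2, -0.71 to -0.51). Mesothelial genes, of the membrane that covers the pad, had 1 of 8 tested members called (*Lrrn4*, from 0.517 to 2.01 FPKM, log2 fold change 0.99, lost without HFD mouse 15 or 18 or LU mouse 2 or 3), with 0 to 4 in the fits without 1 mouse, although their sum was 2.36 to 8.13 FPKM in HFD and 15.3 to 19.2 FPKM in LU. *Upk3b* was listed at 2.06, 0.488 and 0.0549 FPKM in HFD mice and 6.71, 7.93 and 1.62 FPKM in LU mice (adjusted p = 0.102).

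Genes linked to fat expansion and imprinting had 6 of 16 members called higher and 0 lower. *Fam13a*, associated with fat distribution, was listed at 7.86, 8.46 and 7.25 FPKM in HFD mice and 31.1, 56.3 and 16.6 FPKM in LU mice (log2 fold change 1.85, standard error 0.46, adjusted p = 0.0123), with its call lost without LU mouse 3. *Peg3*, a paternally expressed zinc finger gene, was listed at 81.6, 71.6 and 74.3 FPKM in HFD mice and 179, 189.6 and 159.9 FPKM in LU mice (log2 fold change 1.21, standard error 0.21, adjusted p = 0.00171), and its neighbour *Zim1* was at 3.26 to 13.2 FPKM (1.71). *Nnat*, a small membrane protein, rose from 449.6 to 856 FPKM, log2 fold change 0.92, and *Mycl*, of the MYC family, was listed at 2.33, 2.25 and 2.9 FPKM in HFD mice and 9.33, 18 and 6 FPKM in LU mice (log2 fold change 1.67, standard error 0.32, adjusted p = 0.00324). *Mest*, a marker of fat expansion, was at 688 to 661 FPKM, with a log2 fold change of -0.08.

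In BMP, activin and TGF-beta signaling, 6 of 44 genes rose and 5 fell. *Id1*, a direct target of BMP, rose from 12.9 to 38.4 FPKM, log2 fold change 1.50, together with the ligands *Bmp4* and *Bmp6* (1.15 and 0.77), the BMP antagonists *Nog* and *Chrdl1* (1.07 and 0.70) and the endothelial coreceptor *Eng* (0.87). *Tgfb1* and its receptor *Tgfbr1* fell (from 34.4 to 21.3 FPKM, log2 fold change -0.67, and from 28.5 to 13.9 FPKM, log2 fold change -0.98), as did *Fstl1*, *Fst* and *Mstn*. *Id1* was listed at 12.8, 12 and 13.9 FPKM in HFD mice and 40.0, 39.9 and 35.2 FPKM in LU mice. Calls were lost for *Nog* (HFD 12, LU 3, 0.78 to 1.31), *Chrdl1* (HFD 15, HFD 18, LU 2, 0.56 to 0.90), *Eng* (HFD 12, HFD 15, LU 2, LU 3, 0.80 to 0.98) and *Fst* (HFD 12, HFD 18, LU 2, LU 3, LU 8, -0.76 to -0.51). Without HFD mouse 12 the falls numbered 3, so *Fst* was not the only fall lost there. Which of the other falls was lost with it is not given here. Of 26 Wnt genes, *Wnt11* and *Fzd6* rose (7.69%) and *Fzd5* and *Fzd7* fell (7.69%), against 4.81% and 7.64% among all genes. *Sfrp5*, a secreted antagonist of adipocytes, was at 252 to 266 FPKM. Of 25 growth factor genes, *Fgf10*, *Igf2* and *Fgfr2* rose and *Hgf* and *Igf2r* fell. *Hgf* went from 5.41 to 1.93 FPKM, log2 fold change -1.13. *Igf1* was at 62.5 to 50.7 FPKM without a call. Without HFD mouse 12, 1 of the 3 growth factor rises was called. Among the Wnt and growth factor genes, calls were lost for *Wnt11* (HFD 18, 0.58 to 0.86), *Fzd6* (HFD 12, 0.77 to 1.04), *Fzd5* (LU 3, -0.77 to -0.55), *Igf2* (HFD 12, LU 2, 0.65 to 0.76) and *Fgfr2* (HFD 12, LU 2, LU 3, 0.55 to 0.69).

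Of 24 adipogenic transcription factors, *Klf2*, *Klf4* and *Ebf3* were called higher, at log2 fold changes of 0.59, 0.60 and 0.61, just past the fold of 1.5. Calls were lost for *Klf2* (HFD 12, HFD 15, HFD 18, LU 2, LU 3, LU 8, 0.56 to 0.62), *Klf4* (HFD 12, HFD 15, HFD 18, CLE 4, LU 2, LU 3, LU 8, 0.50 to 0.69) and *Ebf3* (HFD 12, LU 2, 0.54 to 0.67), and 0 were called without HFD mouse 12 or without the libraries with the letter R. Of 19 clock genes, 2 rose, among them *Nr1d1* (REV-ERB alpha, from 20.5 to 41.9 FPKM, log2 fold change 0.98), and 2 fell, *Bhlhe40* and *Bhlhe41*. *Nr1d1* was listed at 24.1, 15.3 and 22.1 FPKM in HFD mice and 57.3, 32.8 and 35.6 FPKM in LU mice. *Arntl* and *Clock*, the activators of the loop, were at 7.61 to 6.51 FPKM and 14.8 to 14.6 FPKM, and *Dbp* was at 2.42 to 2.94 FPKM. Without HFD mouse 12, 0 of the clock genes were called lower. Calls were lost for *Bhlhe40* (HFD 12, HFD 15, HFD 18, LU 3, -0.87 to -0.57) and *Bhlhe41* (HFD 12, HFD 18, LU 3, -0.66 to -0.47).

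Of 24 genes of endoplasmic reticulum stress, 3 rose (*Sesn2*, *Chac1* and *Trib3*, targets of ATF4) and 1 fell (*Sdf2l1*), and the chaperone *Hspa5* was at 239.9 to 199 FPKM. By the adjusted p alone, 3 were higher and 6 lower. The lower ones include *Calr*, *Canx*, *Pdia3*, *Atf6* and *Ern1*, at folds under 1.5. *Sesn2* was listed at 19.9, 21.2 and 16.3 FPKM in HFD mice and 44.5, 33.4 and 32.6 FPKM in LU mice (log2 fold change 0.90, standard error 0.22, adjusted p = 0.0123). Without the libraries labelled R, 0 of the 24 were called lower. *Atf4* itself was at 54.9 to 55.7 FPKM. Of 12 glucocorticoid and angiotensin genes, *Agt*, angiotensinogen, *Hsd11b1*, which regenerates glucocorticoid, and *Agtr1a*, an angiotensin receptor, rose (0.99, 0.78 and 0.74), with 1 of the 3 called without LU mouse 8. Calls were lost for *Hsd11b1* (HFD 18, LU 8, 0.67 to 0.88), *Agtr1a* (HFD 12, HFD 15, LU 2, LU 3, LU 8, 0.50 to 0.99), *Sesn2* (HFD 18, 0.76 to 0.98), *Trib3* (HFD 12, HFD 15, LU 2, LU 3, 0.59 to 0.78) and *Sdf2l1* (HFD 12, HFD 15, HFD 18, LU 2, LU 8, -0.71 to -0.49). *Fkbp5* and *Tsc22d3*, targets of the glucocorticoid receptor, had log2 fold changes of 0.12 and -0.03.

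Several of the largest changes were in genes of no list above or of less familiar function. *Tph2*, known as the serotonin-synthesising enzyme of neurons, was listed at 74, 135 and 102 FPKM in HFD mice and 8.26, 8.26 and 33.1 FPKM in LU mice (log2 fold change -2.83, standard error 0.62, adjusted p = 0.00636). *Gpr50*, an orphan receptor related to the melatonin receptors, was listed at 49.5, 35.9 and 55.6 FPKM in HFD mice and 3.79, 4.56 and 11 FPKM in LU mice (log2 fold change -2.79, standard error 0.42, adjusted p = 0.000823). The ubiquitin ligase *Rnf128* went from 27.6 to 4.27 FPKM, log2 fold change -2.56, the adhesion molecule *Cadm1* from 29.8 to 5.01 FPKM, log2 fold change -2.44, the sugar phosphate transporter *Slc37a2* from 75.2 to 14 FPKM, log2 fold change -2.42, the membrane protein *Tm4sf19* from 32.4 to 6.15 FPKM, log2 fold change -2.35, and the DNA repair helicase *Zranb3* from 19.7 to 2.58 FPKM, log2 fold change -2.56. In each of these, as in *Trem2* and *Gpnmb*, LU mouse 8 had the highest LU value. That no LU mouse reached an HFD mouse was a condition for naming these genes and is not a result. The integrin subunit *Itgad* fell (log2 fold change -2.31), and it overlaps *Cox6a2* on the other strand. *Gm49369* was listed at 169, 125 and 161 FPKM in HFD mice and 40.0, 0.00046 and 9.71 FPKM in LU mice. It overlaps *Ctsd* on the same strand, so its value is uncertain, and its call was lost in the fit without each of the 3 HFD mice and in that without LU mouse 3.

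Among the largest rises, *Rbp7*, a retinol-binding protein of fat endothelium and adipocytes, was listed at 46.7, 51.2 and 47.4 FPKM in HFD mice and 179, 250.4 and 152 FPKM in LU mice (log2 fold change 1.95, standard error 0.17, adjusted p = 0.000101). *Acsm3*, a medium-chain acyl-CoA synthetase that overlaps *Eri2* on the other strand, was listed at 1.29, 0.954 and 1 FPKM in HFD mice and 7.42, 10.5 and 3.91 FPKM in LU mice (log2 fold change 1.91, standard error 0.46, adjusted p = 0.0112), and its adjusted p was 0.0551 without the libraries with the letter R. *Gadd45g*, a stress and growth arrest gene, was listed at 22, 30.6 and 31.1 FPKM in HFD mice and 57.4, 129 and 72.2 FPKM in LU mice (log2 fold change 1.52, standard error 0.28, adjusted p = 0.00287). *Eif4ebp3*, a repressor of translation, rose from 0.689 to 5.96 FPKM, log2 fold change 1.99, lies within another annotated gene on the same strand, and was not called without HFD mouse 15 or without LU mouse 3. The protease gene *Prss51* and *2010016I18Rik* rose from 0.299 to 2.89 FPKM, log2 fold change 1.53 and from 2.07 to 8.13 FPKM, log2 fold change 1.53, and both overlap genes on the other strand. *Txnip*, which overlaps an antisense gene, restrains glucose uptake and binds thioredoxin. It was among the most abundant genes that rose, at 715, 650.3 and 709 FPKM in HFD mice and 1206, 1163 and 1100 FPKM in LU mice (log2 fold change 0.74, standard error 0.13, adjusted p = 0.00174).

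Of the genes that the study names for this tissue, some were picked by its authors from these same libraries and others were measured by PCR in the same experiment, so their count is not independent evidence of a direction. Of 53 tested, 9 rose and 12 fell. Those not described above include *Cd44*, a matrix receptor of activated leukocytes (from 65.8 to 18.9 FPKM, log2 fold change -1.75), *Anxa1*, annexin 1 (from 640.4 to 350.5 FPKM, log2 fold change -0.88), *Acot11*, a thioesterase (-0.91), the adenosine receptor *Adora2b* (-0.60) and the adiponectin receptor *Adipor2*, which rose from 197 to 309.5 FPKM, log2 fold change 0.64. *Adipor1* was at 68.6 to 72 FPKM, *Plin1* at 459 to 646 FPKM and *Ppara* at 2.41 to 2.52 FPKM, without a call.

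The other groups place the LU values. Between LU and ND, 842 of the 12775 genes were called (6.59%), 635 higher (4.97%) and 207 lower (1.62%) in LU. The LU median of the lipid-associated macrophage genes was 1.58 above ND on the log2 scale, with an adjusted p under 0.05 in 12 of the 15, and that of the macrophage identity genes was 1.05 above ND, with 11 of 15. *Gpnmb* was at a mean of 4.12 FPKM in ND. In CLE mice 2, 4 and 11 it was at 14.9, 27.9 and 137 FPKM, with a mean of 59.9 FPKM. *Cfd* was at means of 5255 FPKM in ND and 2069 FPKM in CLE. Both of these comparisons share the LU mice with the comparison against HFD. Between LU and CLE, which share the high-fat diet, limma called 1 of the 12775 genes (0.00783%), and 672 had an unadjusted p under 0.05 (5.26%).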

How the data were processed

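RNA of whole epididymal fat was sequenced as paired reads, from 3 mice in each group. The submitters' processing notes list CASAVA 1.8.2, Bowtie2 2.2.3, TopHat2 2.0.12 and Cufflinks 2.2.1, and the genome build is not given in the sources used here. The authors deposited FPKM per transcript for 152210 transcripts, with no counts, so depth is unknown and its effect on precision could not be given. The deposited columns of the authors' own fold changes and calls were not used, nor were 3 of the 15 FPKM columns, whose names matched no sample. The column for ND mouse 4 is spelled MD4 in its header and was taken as that mouse. The library kit does not mark strand, so overlapping and antisense genes cannot be told apart.

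FPKM was summed over the annotated transcripts of each gene and over assembled transcripts that matched them or shared a splice junction, which gave 22947 genes. Coordinates are those of GENCODE M21 (GRCm38), in which 77000 of 78786 annotated transcripts were found, 87.6% of them with the same start and end. Values were analysed as log2(FPKM + 1), and genes with at least 1 FPKM in at least 3 libraries (12775) were tested in 1 limma fit (version 3.58.1, R 4.3.3) over all 12 libraries, with groups as terms and no other covariate, from the deposited FPKM converted to log2. Tables were handled with Python 3.11.15, pandas 2.3.3, numpy 2.4.6 and scipy 1.17.1, and plots made with matplotlib 3.10.9. Tested on simulated data, the fit recovered 169 of 200 genes changed by a log2 fold change of 1 and called 5 others. Each library is 1 mouse, and p-values measure the spread between these mice only.

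The comparison, its 54 gene lists and the promoter motifs were chosen with earlier results of these data known. Genes were named as the 15 strongest rises and 15 strongest falls among called genes whose groups did not overlap, any member of lists of up to 12, the 6 most changed called members in each direction and the 3 most abundant members of longer lists, the genes the study names, and the 15 most abundant called genes. Genes named outside this rule were chosen for their known roles after their values were seen. Promoter sequences are from RefSeq (GRCm38.p6). Alternatives were another pseudocount, other filters, 3 scalings, other sets of libraries, trend and array weights in limma, a term for the letter R, calls by adjusted p only, the most abundant transcript in place of the sum, and leaving out each mouse. A few list members are counted but not reported here by name.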

Additional observations from a re-analysis of the deposited data

Results flagged for a closer look

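The difference between the luteolin and the extract groups was past the threshold of limma for 1 gene, *Xcl1*, which encodes a chemokine of T and NK cells. It was listed at 1.06, 0.92 and 1.22 FPKM in LU mice 2, 3 and 8 and at 0.162, 0 and 0 FPKM in CLE mice 2, 4 and 11, with no overlap (LU minus CLE 0.97 on the log2(FPKM + 1) scale, standard error 0.12, adjusted p = 0.0394). The HFD mice were listed at 1.14, 0.906 and 0.898 FPKM. All of these levels are close to the lowest that entered the test.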

How the results depend on the processing

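The counts of 614 genes called higher and 976 lower in LU against HFD stayed within 1.5 times under the alternatives tried, with 3 exceptions. For LU against HFD, genes called higher or lower by the adjusted p alone numbered 1688 and 1740. For LU against HFD, genes called lower numbered 644 with the filter on a mean of at least 5 FPKM, which tests fewer genes. Leaving out each mouse in turn gave 461 to 635 higher and 828 to 1066 lower, and 985 calls (61.9%) were made in every one of these 12 fits. Without the libraries with the letter R, 1300 of the calls were kept (81.8%), and with the letter as a covariate 1454 (91.4%). The single call in LU against CLE became 0 with a pseudocount of 0.1, with no filter, with the filter on the mean, with quantile normalization, with the trend, with the letter R as a covariate and with the transcript of highest mean, and was 0 to 1 without each mouse in turn. Of 6159 values of 230 named genes under the alternatives, 5783 kept their direction and side of the threshold, 374 kept their direction only and 2 did not keep the direction. These 2 were *Fabp4*, at 0 after quantile normalization, and *Angpt1*, at 0.18 (adjusted p = 0.782) with the transcript of highest mean. Of 1376 counts over gene lists, 79 moved by over 1.5 times. Scaling moved the median of all genes by -0.03 to 0.01 on the log2 scale. No paired analysis was possible because the LU and HFD mice share no number, and LU and CLE share 1. Leaving out mice and the letter R for the list counts, and adding all overlapping assembled transcripts, were chosen after seeing the data. Depth is unknown, and 3 mice per group limit the precision of each fold.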
